A study of Mus musculus with 6 samples.

Results

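Aminoacyl-tRNA synthetases are the enzymes that load each amino acid onto its transfer RNA. The family was taken as 33 gene symbols, 20 for the cytosolic set and 13 for the mitochondrial set, and all 33 had a row among the 26458 symbols of the deposited gene reports. Lars2, the mitochondrial leucyl enzyme, is described apart from the other 12 mitochondrial genes because of the unusual number of reads on its row. The RNA came from Thy1+HE- cells sorted from C57BL/6 mouse hearts 7 days after surgery. The 3 control libraries followed sham surgery, and 3 libraries followed TAC (transaortic constriction), a narrowing of the aorta that puts the heart under pressure load. Thy1 is a surface protein of many cardiac fibroblasts, and the labels do not spell out HE. The mice carry no transgene or deletion that the labels name, and the labels do not say whether a library is 1 animal or a pool. Spread within a group may thus be technical in part, and the p-values rest on that spread alone.

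Cytosolic synthetases supply the ribosomes that translate nuclear mRNAs, and several of them sit together in the multisynthetase complex, held by small scaffold proteins. Mitochondria charge their own tRNAs with a separate set of enzymes, also encoded in the nucleus and imported. Glycyl and lysyl synthetase are exceptions, since Gars and Kars each encode both the cytosolic and the mitochondrial form. When amino acids run short, the transcription factor ATF4 raises many cytosolic synthetase genes together with genes of amino acid synthesis and uptake.

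Gene counts summed to between 1909337 and 2056097 per library in sham and between 3351479 and 4207312 in TAC. Rare mRNAs were therefore counted with less precision in sham, where 3 reads are worth 1.49 to 1.55 CPM (the usual depth-scaled count unit, here with library sizes adjusted by TMM). The share of matched reads that fell on genes also differed, at 25.4% to 34.1% for sham and 38.7% to 43.2% for TAC, without overlap. The lower gene counts of sham are thus not a matter of sequencing depth alone. What caused this difference in share, and its part in the results below, was not tested. Fibroblast markers were abundant in every library, with a summed 12-gene level of 27900 to 36784 CPM in sham and 36952 to 43670 CPM in TAC. Of these 12 genes 4 rose (Col1a1, Col1a2, Col3a1 and Mfap5) and 6 fell (Pdgfra, Tcf21, Ddr2, Dcn, Gsn and Dpt). Rose and fell here mean called by the test defined in the next paragraph. That test called 18.7% of all tested genes, 8.28% as higher and 10.4% as lower in TAC. TAC replicate 3 stood apart in 12 macrophage marker rows (246.0 CPM in sum, against 83.4 and 84.7 in the other TAC libraries and 21.8 to 72.1 in sham). Ptprc, the marker shared by leukocytes, had 0 reads in each sham library and 7, 9 and 17 reads in TAC replicates 1, 2 and 3. Of 8 tested macrophage markers 4 rose and none fell. All 18 tested genes of a list of 20 cycling-cell markers rose, beside the 8.28% of all tested genes. The 20 markers summed to 75.1 to 158 CPM in sham and 563 to 727 CPM in TAC. Some of them reached the low-count limit for testing in TAC libraries only, such as Bub1 (1, 0 and 4 reads in sham, 21, 36 and 33 in TAC). For such genes the limit favours a rise, so the count of 18 is in part set by it. Pericyte markers summed to 2701 to 4228 CPM in sham and 1012 to 2301 in TAC, and cardiomyocyte markers to 238 to 590 and 329 to 693. Of 9 tested pericyte markers 3 fell and none rose, and of 12 cardiomyocyte markers 1 rose and 1 fell. Endothelial markers summed to 347 to 438 CPM in sham and 305 to 361 in TAC. Of 8 tested 1 rose (Erg, from 2.004 ± 1.29 to 16.1 ± 1.65 CPM, SD, n = 3). The 2 that fell were Tek, from 195 ± 4.72 to 95.1 ± 8.78 CPM, and Esam1. Erg (3, 2 and 7 reads in sham) also reached the low-count limit in TAC libraries only. In bulk RNA, fewer cells of a type and less RNA per cell cannot be told apart, and the part of these cell type differences in the results below was not tested.

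Most synthetase mRNAs did not pass the test of TAC against sham. The threshold was a Benjamini-Hochberg p under 0.05 over 12612 genes in the quasi-likelihood test of edgeR, and a gene past it is said to have been called. Of the 19 cytosolic members tested, 1 rose (Gars) and none fell. Of the 6 mitochondrial members tested besides Lars2, 1 fell (Nars2) and none rose. Across all tested genes 18.7% were called, 8.28% as higher and 10.4% as lower in TAC, and the 2 calls among these 25 members (8.0%) are a smaller share than that background. Without sham replicate 2 the background was 10.7%, and in that fit 0 of 20 cytosolic and 1 of 8 mitochondrial members were called. With upper quartile scaling 1240 genes were higher and 1139 lower, against 1044 and 1309 in the main fit. At an unadjusted p under 0.05 there were 3 cytosolic genes and 1 mitochondrial gene, 16.0% of the 25, beside 32.9% of all tested genes. The median log2 fold change was 0.11 over the cytosolic members and -0.29 over the mitochondrial ones, beside 0.01 over all tested genes, whose quartiles were -0.32 and 0.33. Of the cytosolic members 14 of 19 had a positive value, and of the mitochondrial ones 1 of 6 (Yars2), beside 6409 of 12612 tested genes. The difference between the sets is a description and has no test. Nars2 and Cars2, both negative, reached the low-count limit for testing in 3 sham but 2 TAC libraries. Fitted without that limit, the median was -0.22 over 12 mitochondrial members and 0.15 over 20 cytosolic ones, beside 0.07 over all genes. The 3 TAC libraries lay apart from the 3 sham libraries, without overlap, in 5 of 19 cytosolic members (4 higher, 1 lower) and in 3 of 6 mitochondrial members (all lower). Over all tested genes that held for 36.2%, with 17.7% higher and 18.5% lower.

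**Figure D1:**
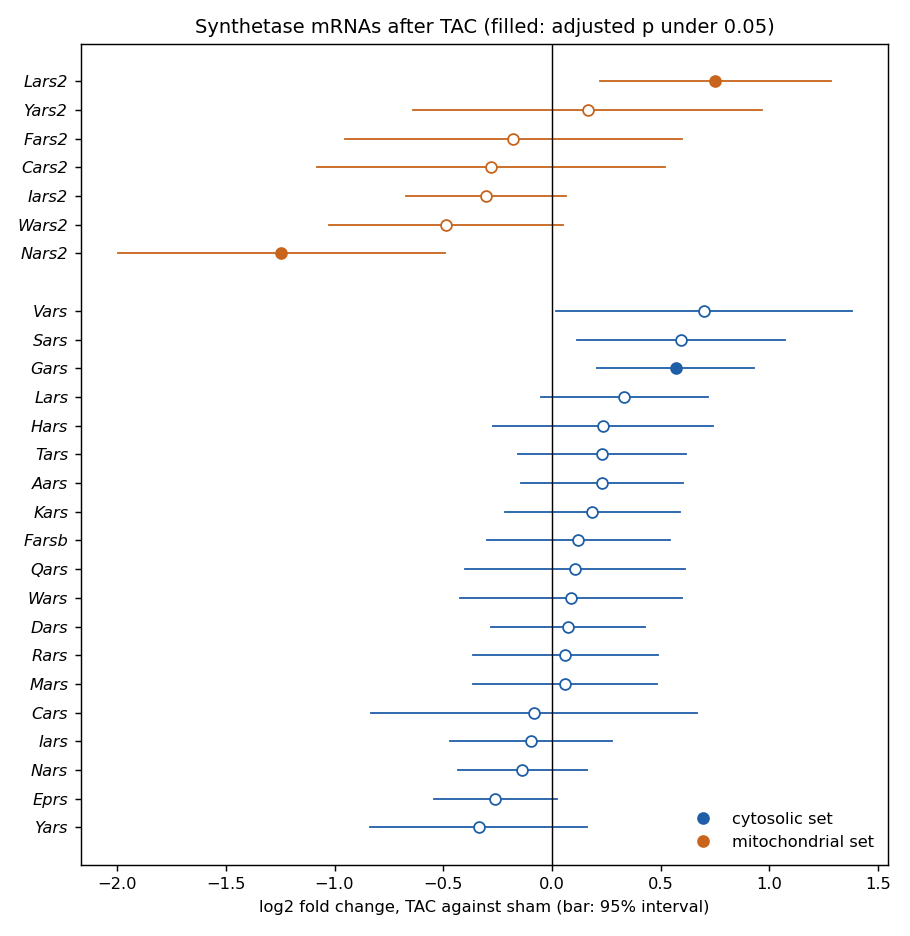
Log2 fold change of TAC against sham (x axis) for the 26 tested synthetase genes, mitochondrial in orange and cytosolic in blue, with bars for the 95% interval from edgeR and filled points for adjusted p under 0.05. Gars and Lars2 lie above 0 and Nars2 below, and 18 of 19 cytosolic genes are unfilled.

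The intervals show what the data could still hold. For 17 of 19 cytosolic members the 95% interval of the log2 fold change lay wholly between -1 and 1, and for 3 of the 6 mitochondrial ones. The best measured was Eprs, with an interval from -0.54 to 0.02. The widest intervals were those of Yars2, from -0.64 to 0.97, and Cars2, from -1.08 to 0.52. A missed threshold does not show that a gene was level.

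Levels were compared per length, as the deposited RPKM (counts divided by row length and by a library total). Eprs, the fused glutamyl and prolyl enzyme, was the highest at 54.5 ± 0.853 RPKM in sham and 45.3 ± 4.44 in TAC (SD, n = 3). Its lowest library (41.3 RPKM) lay above the highest one of Nars, the asparaginyl enzyme (28.4 to 35.7 RPKM). Nars in turn did not overlap with Gars, at 13.3 to 24.3 RPKM, while Gars, Dars (15.7 to 18.8) and Iars (11.5 to 19.0) overlapped with one another. Over the 20 cytosolic genes the median of the 6-library means was 9.82 RPKM, and over the 12 mitochondrial genes 1.75 RPKM. The lowest cytosolic genes were Cars at 2.21, Vars at 2.01 and Farsa at 1.08 RPKM.

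**Figure D2:**
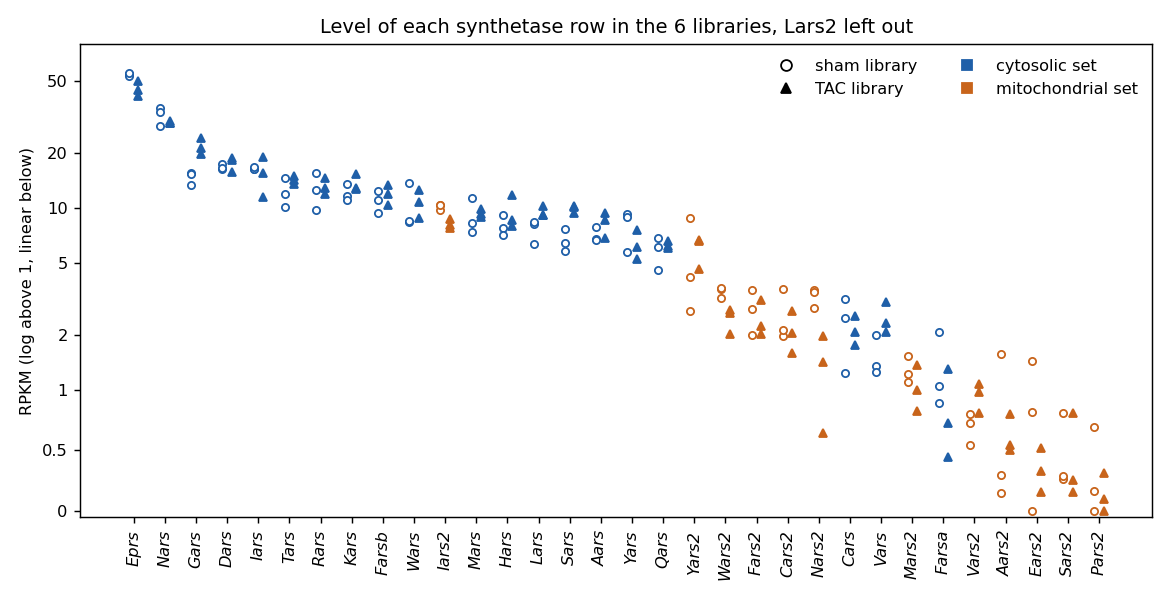
RPKM (y axis) of each synthetase row except Lars2 in the 6 libraries (circles for sham, triangles for TAC, blue for the cytosolic and orange for the mitochondrial set), ordered by the mean, with the axis logarithmic above 1 and linear below. Eprs and Nars lead, and Iars2 is the highest mitochondrial gene at a mean of 9.19 RPKM.

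The same amino acid was usually served by more cytosolic than mitochondrial mRNA. In 13 pairs of a cytosolic and a mitochondrial gene for the same amino acid, the cytosolic one was higher in all 6 libraries in 10. The exceptions were Cars with Cars2, Farsa with Fars2 and Yars with Yars2. Among pairs with both genes tested, the ratio of the means was 13.4 for Nars over Nars2, 4.37 for Farsb over Fars2, 3.51 for Wars over Wars2, 1.74 for Iars over Iars2, 1.27 for Yars over Yars2 and 0.946 for Cars over Cars2. Farsa and Farsb encode the 2 subunits of 1 phenylalanyl enzyme, yet the Farsa row held 5 to 18 reads per library and the Farsb row 38 to 119. The Farsa row is 3326 bases long, against 1826 for the longest coding transcript of Farsa in GENCODE M21, and its RPKM is divided by that row's length. Its counts are not divided by length, but they too depend on which bases the row spans. Row and longest coding transcript also differed in other members, for example 2882 against 11294 bases in Mars2 and 1558 against 2805 in Yars2. In Eprs they were close, at 4850 and 4906. The RPKM order, set medians and ratios between genes given here and above carry this limit.

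Summed over genes, the cytosolic set had nearly equal means in both groups, and the mitochondrial sum was lower in every TAC library. The 20 cytosolic genes summed to 783, 816 and 753 CPM in sham replicates 1, 2 and 3 and to 843, 755 and 747 CPM in TAC replicates 1, 2 and 3. Their means were 784 ± 31.7 and 782 ± 53.3 CPM (SD, n = 3), and the groups overlapped. The 12 mitochondrial genes summed to 100.1, 88.6 and 94.7 CPM in sham and to 77.9, 68.5 and 77.6 CPM in TAC. Their means were 94.5 ± 5.78 and 74.7 ± 5.37 CPM, and every TAC library was below every sham library. Iars2 alone made up 35.8 of the 94.5 CPM in sham and 29.1 of the 74.7 CPM in TAC. The means of Nars2 (12.3 in sham and 5.05 in TAC) and Wars2 (15.2 and 10.9) were also lower. Those of Yars2 (8.20 and 9.32) and Vars2 (2.53 and 3.49) were higher. The lower sum thus rests in large part on a few genes. The ratio of the cytosolic to the mitochondrial RPKM sum was 7.18, 9.37 and 7.43 in sham and 10.2, 10.7 and 8.91 in TAC, where TAC replicate 3 fell below sham replicate 2.

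Gars, which encodes the glycyl enzyme of both compartments (chromosome 6, 55038007 to 55079500 in GRCm38), was the called cytosolic gene. The sham replicates 1, 2 and 3 held 38.1, 31.1 and 36.2 CPM, and the TAC replicates 59.8, 46.1 and 50.8 CPM. Every TAC library was above every sham library. This is a 1.48-fold rise (log2 fold change 0.57 ± 0.17 SE; edgeR adjusted p 0.0284). None of 2331 words of 50 bases in its GENCODE coding transcripts occurred in another gene's transcripts. Its call was lost without sham replicate 2 (adjusted p of 0.134), without sham replicate 3 (0.0673) and without TAC replicate 1 (0.102), and in DESeq2 (0.0564).

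Since ATF4 acts with C/EBP proteins on a short element, promoters were searched for its core TGATGNAA on both strands, from 250 bases before to 50 bases after the RefSeq start of transcription. Of 25 members with a promoter entry, 5 of 13 cytosolic and 0 of 12 mitochondrial genes held the letters, beside 4.51% of 27025 genes. They are shown because the letters were found in 1 set and not in the other, with the match in capitals, 5′ to 3′ on the gene's strand, from RefSeq (GRCm38.p6). On Gars, Aars, Iars and Tars the letters lie on the opposite strand and so read as the reverse complement TTNCATCA.
Gars chr6:55037960-55037989: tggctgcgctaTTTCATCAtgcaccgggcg
Aars chr8:111033840-111033869: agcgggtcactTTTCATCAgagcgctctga
Iars chr13:49682126-49682155: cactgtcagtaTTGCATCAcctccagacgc
Tars chr15:11399655-11399684 (minus strand): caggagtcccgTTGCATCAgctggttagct
Yars chr4:129189895-129189924: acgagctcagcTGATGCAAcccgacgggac
Counted from the start, the match shown begins at position -30 in Gars, 10 in Aars, 8 in Iars, -15 in Tars and 4 in Yars. The genes with the letters did not move alike: the log2 fold changes were 0.57 for Gars, 0.23 for Aars and Tars, -0.10 for Iars and -0.34 for Yars, and of these Gars was the one called. A match is a description of these letters and not a shown binding site.

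The 250 bases before the start are given for the called gene of each set, Gars with the match in capitals and Nars2 with no match.
Gars chr6:55037751-55038000: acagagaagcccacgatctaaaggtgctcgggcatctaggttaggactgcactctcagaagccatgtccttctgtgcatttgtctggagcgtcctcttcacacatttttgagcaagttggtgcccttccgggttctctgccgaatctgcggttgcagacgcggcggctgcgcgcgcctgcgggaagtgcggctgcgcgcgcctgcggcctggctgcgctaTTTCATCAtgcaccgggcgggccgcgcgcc
Nars2 chr7:96951277-96951526: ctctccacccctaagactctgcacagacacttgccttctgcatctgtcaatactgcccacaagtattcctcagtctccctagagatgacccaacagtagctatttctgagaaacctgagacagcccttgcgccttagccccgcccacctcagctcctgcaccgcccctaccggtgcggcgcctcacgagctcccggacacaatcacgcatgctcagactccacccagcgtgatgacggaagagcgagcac
Both stretches are on the plus strand, and 62.4% of the bases in Gars and 58.4% in Nars2 are G or C.

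Sars, Vars and Lars also had TAC libraries all above sham without passing the test. Sars, the seryl enzyme, was at 11.02, 14.0 and 11.9 CPM in sham and 18.1, 18.6 and 18.9 CPM in TAC, a log2 fold change of 0.59 ± 0.23 (SE, edgeR adjusted p of 0.0783). The value for Sars is as large as that for Gars, but it rests on 22 to 27 reads per sham library. Vars, the valyl enzyme, was at 5.51, 7.77 and 4.96 CPM in sham and 8.59, 9.08 and 12.0 CPM in TAC (log2 fold change of 0.70 ± 0.32, adjusted p of 0.141), on 10 to 15 reads per sham library. Lars, the leucyl enzyme of the complex, was at 31.5, 31.1 and 23.8 CPM in sham and 36.2, 34.0 and 38.8 CPM in TAC (0.33 ± 0.18, adjusted p of 0.217). None of these 3 passed in any of 18 alternative analyses.

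Eprs had TAC libraries all below sham. It was at 270, 254 and 265 CPM in sham and 251, 209 and 199 CPM in TAC, with TAC replicate 1 close to sham replicate 2. On the log2 scale TAC minus sham was -0.26 ± 0.13 (SE; edgeR adjusted p 0.187). Collagen chains are rich in glycine and proline, the amino acids that Gars and Eprs charge (Eprs also charges glutamate). In the same libraries 9 of 10 collagen genes rose, beside 8.28% of all tested genes called higher in TAC. Examples are Col1a2, from 2690 ± 633 to 7327 ± 735 CPM, and Col5a2, from 296 ± 9.89 to 890 ± 112 CPM (SD, n = 3). The collagen list was chosen with its rise already known. Whether the collagen rise and the values of Gars and Eprs are linked was not tested.

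**Figure D3:**
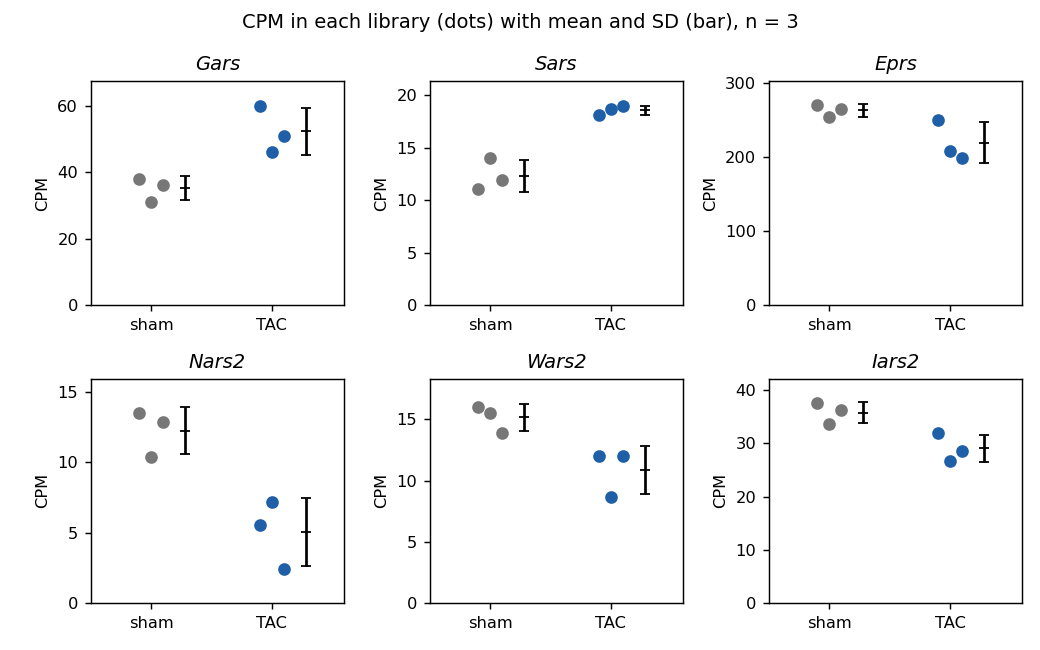
CPM in each library (dots) for 6 of the synthetase genes whose groups do not overlap, grey for sham and blue for TAC, with the mean and SD of 3 libraries as a bar. Gars and Sars are higher in every TAC library, and Eprs, Nars2, Wars2 and Iars2 lower.

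The 8 members of the multisynthetase complex gave no call. None passed in edgeR, beside 18.7% of all tested genes. None had an unadjusted p under 0.05, beside 32.9%, and none passed in DESeq2, voom or another alternative. Their median log2 fold change was 0.07, with values from -0.26 (Eprs) to 0.33 (Lars). Iars had a mean of 72.2 ± 1.48 CPM in sham and of 67.5 ± 17.9 CPM in TAC (SD, n = 3), with TAC replicates 1, 2 and 3 at 85.9, 66.4 and 50.2 CPM on both sides of the sham values. Dars, the aspartyl enzyme, was at 36.0 ± 0.779 and 37.9 ± 3.72 CPM, and Rars, the arginyl enzyme, at 26.5 ± 5.91 and 27.6 ± 2.44. Mars, for methionine, was at 24.98 ± 5.36 and 26.0 ± 2.17 CPM, Kars, for lysine, at 23.4 ± 2.31 and 26.7 ± 2.83, and Qars, for glutamine, at 14.0 ± 2.72 and 15.05 ± 0.531. In all of these the groups overlapped.

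The scaffold of that complex was measured with few reads. Aimp2 (listed as Jtv1) rose from 5.20 ± 0.958 to 10.2 ± 0.535 CPM (SD, n = 3), or by 0.96 ± 0.31 on the log2 scale (SE; edgeR adjusted p 0.0408). It had 8 to 12 reads per sham library and was not called by DESeq2 or voom. Aimp1 (listed as Scye1) had 14, 15 and 4 reads in sham and 33, 55 and 33 in TAC (0.98 ± 0.37 on the log2 scale, adjusted p of 0.0792). Eef1e1, the scaffold protein also called AIMP3, had -0.56 ± 0.34 and an adjusted p of 0.269.

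Among the 11 tested cytosolic genes outside the complex, 1 was called (Gars), or 9.09%, beside 18.7% of all tested genes. Their median log2 fold change was 0.23. Nars had means of 84.9 ± 8.19 CPM (sham) and 77.2 ± 3.70 CPM (TAC, SD, n = 3). Aars, for alanine, was at 34.5 ± 2.91 and 40.4 ± 5.84 CPM. Of the 50-base words of Aars, 20.1% also occur in Exosc6, which overlaps it on the same strand and had 1 to 10 reads per library in its own row. These shared words may lie partly outside the counted row of Aars. Tars, for threonine, was at 32.1 ± 5.76 and 37.6 ± 3.17 CPM, Farsb at 23.3 ± 3.68 and 25.3 ± 3.01, and Hars, for histidine, at 15.2 ± 1.85 and 17.9 ± 3.90. Yars, for tyrosine, was at 25.5, 23.8 and 15.4 CPM in sham and 14.7, 16.1 and 20.4 CPM in TAC (-0.34 ± 0.24 SE, edgeR adjusted p of 0.341). Cars, for cysteine, was at 7.23 ± 2.99 and 6.79 ± 1.05 CPM on 8 to 34 reads per library.

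Wars, the tryptophanyl enzyme, is known as a gene that interferon gamma induces. It was at 15.5, 24.3 and 15.4 CPM in sham and 23.6, 19.1 and 15.9 CPM in TAC, with sham replicate 2 and TAC replicate 1 high and the groups overlapping. Its log2 fold change was 0.09 ± 0.24 (SE, edgeR adjusted p of 0.836). Of 16 tested genes of an interferon gamma list 6 fell and none rose, with a list median of -0.48. The share called was 37.5%, all lower, beside 10.4% of all tested genes called lower in TAC. Irgm, an interferon-induced GTPase, fell from 90.1 ± 3.33 to 27.98 ± 7.04 CPM (SD, n = 3), Gbp2 from 84.8 ± 17.2 to 46.3 ± 1.35, Iigp1 from 85.6 ± 14.5 to 40.2 ± 2.21 and the transcription factor Irf1 from 63.8 ± 12.5 to 35.0 ± 3.73.

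Nars2, the mitochondrial asparaginyl enzyme (chromosome 7, 96951505 to 97064758 in GRCm38), was the called mitochondrial gene. The sham replicates 1, 2 and 3 held 13.5, 10.4 and 12.9 CPM, and the TAC replicates 5.52, 7.22 and 2.41 CPM. All TAC libraries lay below all sham libraries, and TAC replicate 3 was the lowest. On the log2 scale TAC minus sham was -1.24 ± 0.36 (SE; edgeR adjusted p 0.0221). The counts were 27, 20 and 26 in sham and 18, 31 and 8 in TAC. The gene reached the low-count limit in 3 sham and 2 TAC libraries. Without TAC replicate 3 the log2 fold change was -0.92 and the adjusted p 0.0554, and the call was also lost without sham replicate 1 (0.0718) or sham replicate 3 (0.0648). Of its 50-base words 5.73% occur in the antisense gene C230038L03Rik, and the TruSeq v2 preparation used here keeps no strand information. Its cytosolic counterpart Nars had a log2 fold change of -0.14 ± 0.14.

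Wars2 and Iars2 were also lower in every TAC library without passing. Wars2 was at 16.0, 15.5 and 13.9 CPM in sham and 12.0, 8.61 and 12.0 CPM in TAC (-0.49 ± 0.25 SE, edgeR adjusted p of 0.194). Iars2 was at 37.6, 33.7 and 36.2 CPM in sham and 31.9, 26.8 and 28.6 CPM in TAC (-0.30 ± 0.17, adjusted p of 0.239). Of the 50-base words of Iars2, 31.0% occur in other genes, mostly in Rab3gap2 on the opposite strand, so part of its reads may belong there. Fars2 was at 5.86 ± 1.65 and 5.24 ± 1.25 CPM (SD, n = 3), and Cars2 at 5.70 ± 1.94 and 4.71 ± 1.19. Of the Cars2 words 17.4% occur in Naxd. The words of Iars2 and Cars2, as of Aars and Nars2, come from all GENCODE coding transcripts of the gene. The shared ones may lie partly outside the counted row, which in Iars2 is 3540 bases long against 5471 for the longest such transcript. Yars2 ran from 4.14 to 14.0 CPM within sham and from 6.99 to 10.7 in TAC.

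The other 7 members were too low to test, Farsa among the cytosolic genes and Aars2, Ears2, Mars2, Pars2, Sars2 and Vars2 among the mitochondrial ones. Farsa had 6, 13 and 7 reads in sham replicates 1, 2 and 3 and 5, 18 and 8 in TAC. Mars2 had 6 to 9 reads in sham and 8 to 13 in TAC, Vars2 4 to 6 and 10 to 15, and Aars2 1 to 10 and 6 to 9. Sars2 had 1 to 3 and 1 to 5 reads. Ears2 had 0, 5 and 3 reads in sham, and Pars2 had 0, 4 and 1 in sham and 1, 4 and 0 in TAC. A count of 0 allows up to 1.502 CPM in sham replicate 1 and 0.902 CPM in TAC replicate 3. Fitted without the low-count filter, these 7 had edgeR adjusted p from 0.511 to 0.969.

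The row of Lars2 (chromosome 9, 123366927 to 123462666 in GRCm38) was unlike the rest of the family. It held 12986, 10584 and 8982 reads in sham replicates 1, 2 and 3 and 18492, 36516 and 44930 in TAC. That was 5.26 to 16.4 times the reads of the other 32 members together in the same library. Per length it had 1418 ± 244 RPKM (sham) and 2392 ± 1047 RPKM (TAC, SD, n = 3), while Lars, the cytosolic leucyl gene, was at 7.61 ± 1.12 and 9.56 ± 0.590. The reads were piled up, where the deposited columns of highest and average counts are read as coverage per base, a reading taken from their names and values. The deepest base of the row was covered by 29.2% to 35.8% of all its reads, and was 23.2 to 28.5 times as deep as the mean base. In 18 other members with at least 50 reads in a library, the deepest base held 3.93% to 16.7% of the reads and was 2.80 to 10.8 times the mean. Among 77 rows with at least 2000 reads in every library, Lars2 ranked 1 on both measures, with medians over these rows of 5.99% and 3.59 times. With the reads over that base taken away, 6048 to 30419 reads per library remained. The share on the forward strand was 58.7% to 61.7%.

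Of 4527 words of 50 bases in the Lars2 coding transcripts, 3 occur in another gene, Gm15564, which GENCODE types as antisense. No exon base of Lars2 is overlapped by another gene. Nuclear ribosomal RNA was not compared here. Gm15564 is among 17 gene names linked to ribosomal or other abundant noncoding RNA that were looked up, and it had no row. Of these 17, Rpph1 and Rmrp had rows, and Rpph1, the RNA of RNase P, was at 8.64 ± 3.74 and 6.85 ± 3.18 CPM (SD, n = 3).

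The range of Lars2 within TAC was wider than the difference between the group means. Lars2 was at 6502, 5483 and 4456 CPM in sham and 5673, 8502 and 13511 CPM in TAC, and TAC replicate 1 lay below sham replicate 1. On the log2 scale TAC minus sham was 0.75 ± 0.25 (SE; edgeR adjusted p 0.0470). Without TAC replicate 3 it was 0.37 with an adjusted p of 0.245, in DESeq2 the adjusted p was 0.200, and 8 of 17 alternatives kept the call. The row LOC672857 (chromosome 17, 1892 bases), picked after its values were seen, was also high, with 20.4% to 21.6% of its reads over the deepest base. That base was 7.86 to 8.33 times as deep as the mean base, within the range of the other members, whose rows held far fewer reads. Among the 77 rows with at least 2000 reads in every library, its 6-library means were 20.9% and 8.05 times. The medians over these rows were 5.99% and 3.59 times. LOC672857 held 1.77%, 1.78% and 1.30% of all gene counts in sham and 1.04%, 1.69% and 3.82% in TAC. Lars2 held 0.632%, 0.554% and 0.445% in sham and 0.544%, 0.868% and 1.34% in TAC. Both rows were highest in TAC replicate 3, with TAC replicate 1 the lowest TAC library in both. Whether the Lars2 reads are its own mRNA was not tested.

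**Figure D4:**
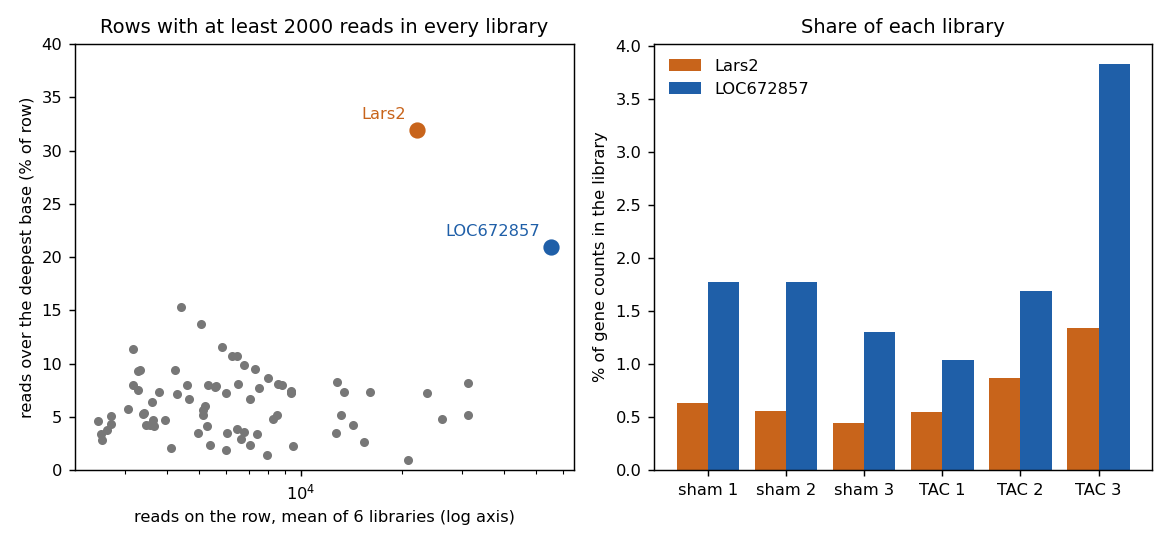
Left, the share of a row's reads that cover its deepest base against the reads on the row (log axis), means of 6 libraries, for 77 rows with at least 2000 reads in every library. Right, the share of each library's gene counts on Lars2 and LOC672857: Lars2 leads the left panel at 31.9%, and both rows peak in TAC replicate 3.

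Genes of amino acid supply were called about as often as genes in general, of which 18.7% were: 21.4% of the amino acid response list, 25% of amino acid synthesis and 21.4% of amino acid transport. Of 14 tested genes of the amino acid response, to which ATF4 and its targets belong, 1 rose and 2 fell. Nupr1, a small stress-induced protein, rose from 21.7 ± 2.64 to 48.3 ± 7.87 CPM (SD, n = 3). Atf3, a stress-induced transcription factor, fell from 592 ± 42.4 to 211 ± 43.9 CPM, and Vldlr, a lipoprotein receptor, from 26.0 ± 5.17 to 11.9 ± 2.56. Atf4 itself, named here for its role and not by the rule, was at 300, 352 and 289 CPM in sham and 229, 210 and 279 CPM in TAC. All TAC libraries of Atf4 were lower, but its log2 fold change of -0.39 ± 0.14 (SE) missed the threshold (edgeR adjusted p of 0.0700). Asns, the asparagine synthetase that is a usual ATF4 target, had 0.59 ± 0.35 and an adjusted p of 0.258, named in the same way.

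Of 12 tested genes of amino acid synthesis, 1 rose and 2 fell. Glul, glutamine synthetase, fell from 667 ± 138 to 190 ± 33.8 CPM (log2 fold change of -1.82 ± 0.17 SE, edgeR adjusted p of 2.16e-06). Pycr1, which makes proline in mitochondria, rose from 7.40 ± 0.481 to 13.9 ± 3.33 CPM (adjusted p of 0.0394). Of 14 tested amino acid transporters, Slc7a2, a carrier of cationic amino acids, rose from 109 ± 20.9 to 180 ± 30.8 CPM. Slc38a2, a carrier of small neutral amino acids, fell from 880 ± 79.3 to 534 ± 20.7 CPM, and Slc6a9, a glycine transporter, from 16.7 ± 0.565 to 9.14 ± 1.42.

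Of 14 tested genes of eIF2 control, the switch that lets ATF4 be translated, 1 fell (7.14% called, beside 18.7% of all tested genes). It was Ppp1r15a (listed as Myd116), from 131 ± 3.68 to 66.1 ± 7.02 CPM (SD, n = 3). Of 11 genes of cytosolic elongation 2 were called (18.2%). Eef1g rose from 131 ± 26.2 to 202 ± 23.5 CPM and Eif5a fell from 278 ± 10.3 to 209 ± 15.1 CPM. None of 19 tested genes of mitochondrial translation was called by edgeR, with 1 at an unadjusted p under 0.05 and none by DESeq2 or voom. Mtif2, a mitochondrial initiation factor, was at 20.2 ± 1.59 and 18.7 ± 4.13 CPM. None of the 5 tested genes among 8 rows of other mitochondrial charging enzymes was called by edgeR, DESeq2 or voom, and none had an unadjusted p under 0.05. Among them Gatc (listed as 2010003O18Rik), a subunit of the enzyme that makes mitochondrial glutaminyl-tRNA, was at 37.4 ± 3.16 and 32.9 ± 4.03 CPM. The same counts of 0 held for the 5 tested genes of tRNA editing and related enzymes, such as Dtd1 at 10.6 ± 1.80 and 12.0 ± 2.63 CPM.

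**Figure D5:**
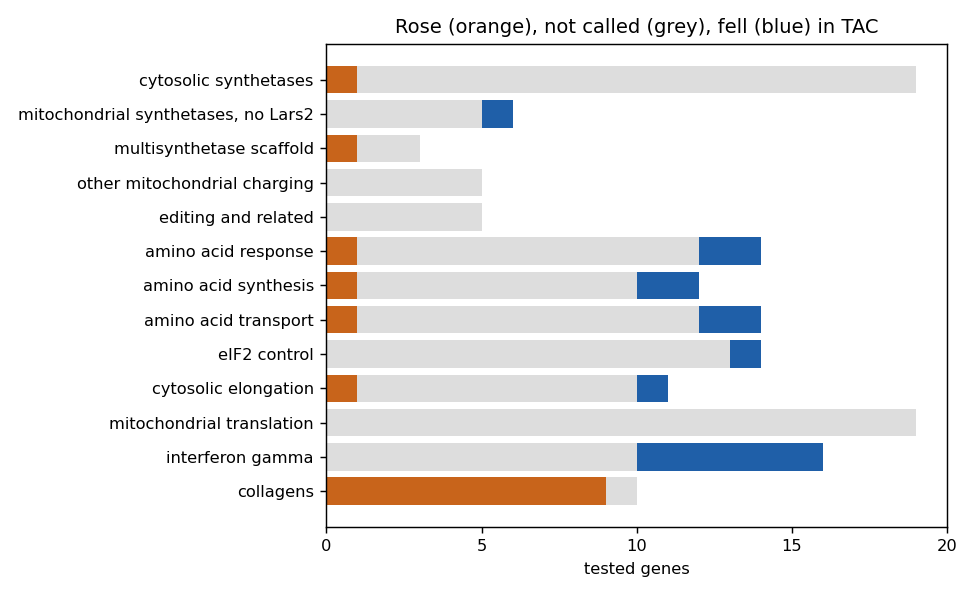
Number of tested genes that rose (orange), were not called (grey) or fell (blue) in TAC, for the synthetase sets and 11 related lists (rows). The synthetases and mitochondrial translation are nearly all grey, while 9 of 10 collagen genes rose, beside 8.28% of all tested genes called higher.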

How the data were processed

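Per the file headers, NextGENe 2.3.3 wrote 1 report for each library. The deposited read counts per gene row are not normalized. The deposited RPKM values are these counts per row length and per a library total that, recomputed from the values, lies 1.07% to 1.32% below the sum of counts on genes. The deposited signal columns of highest and average counts were read as coverage per base of a row, from their names and values. The submitters' processing notes name mm10 and Partek 6.6 without roles, and the handling of reads with several matches is, in the sources used here, not given.

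Rows of 1 symbol were summed. Genes kept by filterByExpr of edgeR 4.0.16 (R 4.3.3) were scaled by TMM and tested two-sided by quasi-likelihood, and p-values of the 12612 genes were adjusted by Benjamini and Hochberg. Standard errors and 95% intervals come from the F statistic. CPM uses the TMM library sizes. Alternatives used DESeq2 1.42.0, limma 3.58.1 (voom, and log2 of RPKM with pseudocounts of 1 and 0.1), other scalings and filters, a robust fit, a replicate block, omission of Lars2 and of each library. Omission of both libraries numbered 3 was added after seeing the data. Steps were tested on simulated data for TAC against sham. Where the built-in difference was 2-fold, the test picked up 51 out of 100 such genes. Where it was 4-fold, it picked up 95 out of 100. There were 7 false calls. Many true differences of 2-fold were thus missed in the simulation. It held 100 changed genes of each size among 12447 kept, and the same built-in spread between libraries for all genes. In the data 2353 genes were called and the spread differs between genes, so the recovered shares need not hold there.

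The members and the 18 gene lists were chosen with earlier results of these data known. Every member is named. From each list the 4 called genes with the smallest adjusted p are named, or the 2 with the highest CPM where none was called, and each ribosomal-linked row. Some items that this rule or the promoter search gave are not reported here. For lists of cell types, summed CPM is given. Interval floors cover counting error only. No 2 libraries of a group were alike within sampling noise (chi-square over its degrees of freedom, 3.38 to 14.1). Plots used matplotlib 3.10.9.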

Additional observations from a re-analysis of the deposited data

How the results depend on the processing

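The fold changes of the 26 tested members were recomputed in 466 combinations of gene and alternative. None reversed a call, none gained one, and 17 lost one, all in Gars, Lars2 or Nars2. With DESeq2 the number of cytosolic genes called went from 1 to 0, with 1 at an unadjusted p under 0.05, while edgeR and voom called 1. Leaving out 1 library at a time gave 1454 to 2261 genes called over all, against 2353, with the lowest value without sham replicate 2. It gave 0 to 1 cytosolic genes and 0 to 1 mitochondrial genes. Without both libraries numbered 3 the mitochondrial count was 0, with Nars2 at -0.89 and an edgeR adjusted p of 0.106. The cause was not tested. With the replicate block 2346 genes, 1 cytosolic gene and 1 mitochondrial gene were called. Libraries with the same number share only that number: the correlations of their deviations were -0.0862 to 0.0824, and 1 of 3 sham libraries correlated best with its own number. Low counts kept 7 members from being tested.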
